A study of Mus musculus with 16 samples.

Results

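Treatment with L-methionine (MET) and valproic acid (VPA), called M+V, was compared with vehicle in whole cochleae by microarray, with 4 M+V arrays (replicates 3 to 6) set against 4 control arrays (replicates 2 to 5). These 8 of the 16 arrays of the series were chosen because they shared a low level of bioB, a bacterial transcript added at hybridization, with a mean log2 signal under 7: bioB lay between 5.98 and 6.36 on these 8 arrays and between 9.02 and 9.74 on the other 8. All mice were male DBA/2J, an inbred strain with early progressive hearing loss, and each array held RNA of 1 left cochlea. M+V-treated mice received MET (500 mg/kg) and VPA (300 mg/kg) subcutaneously once daily for 8 weeks from 4 weeks of age, control mice received the sodium bicarbonate vehicle alone, and both groups were 12 weeks old at dissection. At 12 weeks, 1 further control array and 2 further M+V arrays had the high bioB level and served only as a comparison. All 34945 probes with a single gene symbol were considered; 16055 of them were dim, that is, under their array's median in at least 1 array of each group. The remaining 18890 covered 11487 genes and were tested together with probes of no or several symbols, 21485 probes in all.

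MET feeds the methionine cycle, which makes S-adenosylmethionine, the methyl donor for DNA and histone methylation. VPA, an antiepileptic drug, inhibits histone deacetylases, which remove acetyl groups from histone tails and are in general linked with lower transcription. The cochlea combines the sensory epithelium, with its hair cells and supporting cells, the stria vascularis, which secretes potassium into the endolymph, the fibrocytes of the spiral ligament, the spiral ganglion neurons, and a bony capsule whose marrow makes blood cells.

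No probe differed between M+V-treated and control cochleae after correction for multiple testing. With limma and Benjamini-Hochberg adjustment the lowest adjusted p was 0.333, 0 of 21485 probes passed an adjusted p of 0.05, and 1609 had an unadjusted p under 0.05, of which 751 were higher (3.5%) and 858 lower (3.99%) and where 1074.25 would be given by chance alone. All M+V arrays lay above all controls in 500 probes (2.33%) and below them in 489 (2.28%). The t-test of the study's methods gave 0 probes after adjustment and 1324 before it. Probes past the cutoffs used in the study (more than 1.5-fold, or 0.58 on the log2 scale, with an unadjusted p under 0.05) numbered 31 higher (0.144%) and 139 lower (0.647%) in M+V and represented 25 and 113 named genes. Below, a gene is called higher or lower in M+V when it passed these cutoffs in limma, and every such call is one without correction. Of the 31 higher probes 19 passed the filter on dim probes only through the M+V arrays, and of the 139 lower ones 57 only through the controls; such a probe is high in the group that let it through by construction, and its values are a description only. In whole-tissue RNA, fewer cells of a type and less RNA per cell cannot be told apart. The median standard error (SE) of a difference was 0.12 on the log2 scale, and the small number of arrays limits the precision.

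**Figure D1:**
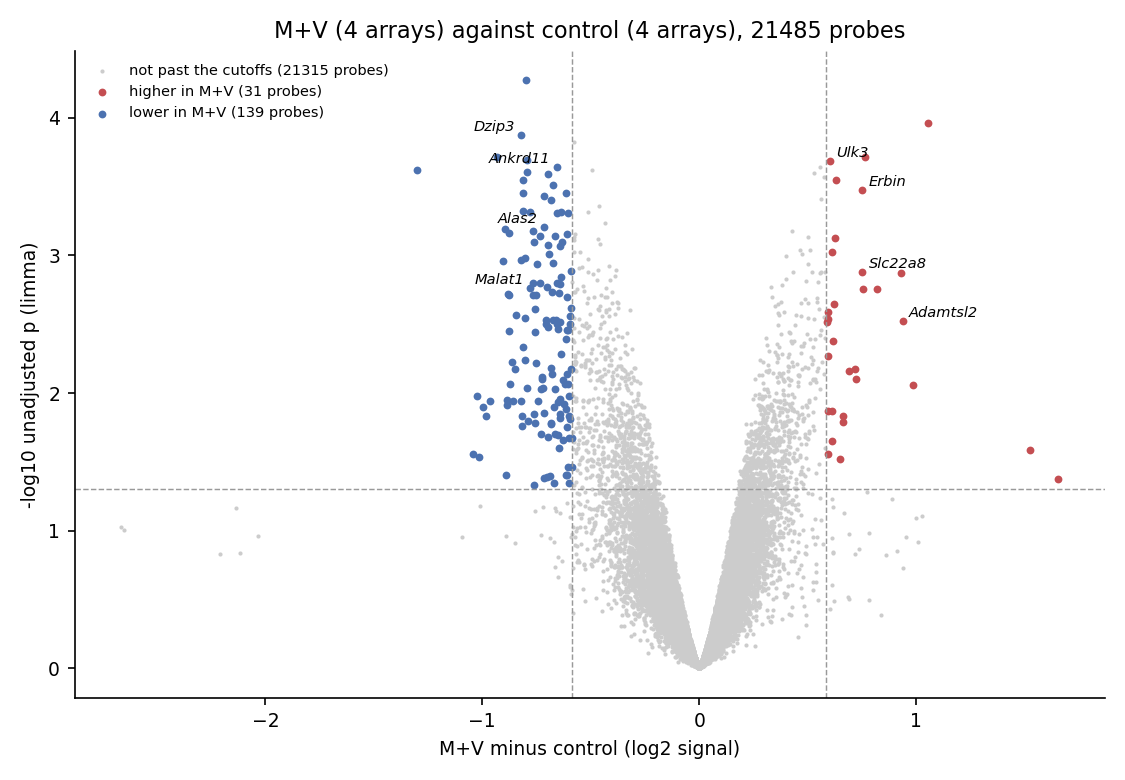
Difference between M+V and control (x axis, log2 signal, 4 arrays each) against the unadjusted p of limma (y axis, -log10) for 21485 probes. Dashed lines mark the study's cutoffs; 31 probes lie past them to the right and 139 to the left.

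Cochlear markers were present in every array: Slc12a2, the sodium-potassium-chloride cotransporter of strial marginal cells and fibrocytes, had a log2 signal of 13.8 to 13.9 in controls and 13.9 to 14.4 in M+V, and Otor, made by cochlear fibrocytes, of 12.3 to 13.1 and 12.8 to 13.8. Of 19 hair cell genes on the array only 8 passed the filter on dim probes. Genes of blood-forming cells were bright as well, with the erythrocyte anion exchanger Slc4a1 at a mean of 13.4 in controls. M+V replicate 3 stood apart from the other 7 arrays, holding 23.3% of the residual variance over all tested probes against 8.43% to 15.7% in each of the others. Counts over gene lists are therefore also given without it, a choice made after the data had been seen. Each gene of a list was represented by its brightest tested probe; over all 11487 genes the median difference was 0.02, and 56.8% were above 0 and 43.2% below.

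Erythroid genes were among the lower ones in M+V. Of 11487 genes, 28 were lower (0.244%) and 8 higher (0.0696%) by their brightest probe, and 239 (2.08%) were below control and 388 (3.38%) above it at an unadjusted p under 0.05. Among 18 erythroid genes, 2 were lower by their brightest probe, 3 lay below control at an unadjusted p under 0.05, 14 were below 0, and the median difference was -0.24. Alas2, the first enzyme of heme synthesis in red cell precursors, had log2 signals of 12.34, 12.14, 12.51 and 12.14 in controls and of 11.22, 11.52, 11.74 and 11.80 in M+V. All 4 M+V arrays lay below every control array, with a difference of -0.72 (SE 0.14; limma unadjusted p = 0.000624, adjusted p = 0.352). Fech, which inserts iron into heme in the last step of that pathway, was at 13.56, 13.47, 13.76 and 13.51 in controls and at 12.94, 13.20, 13.22 and 13.30 in M+V. Its groups did not overlap either, although the difference of -0.41 stayed within the fold cutoff. Groups did not overlap in 163 genes with lower M+V values (1.42%) and 276 with higher ones (2.4%). Epb42, a protein of the red cell membrane skeleton, was lower by the cutoffs (-0.67, SE 0.29), but control replicate 5, at 9.35, lay below M+V replicates 4 and 5, at 9.51 and 10.01. Slc4a1 differed by -0.38 (SE 0.18) and did not pass. Counting any tested probe of a gene, where 113 of 11487 genes were lower (0.984%) and 25 higher (0.218%), a further erythroid gene, Mkrn1, was lower in 1 of its 6 probes (-0.61) while its brightest differed by 0.12.

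The mean level of the erythroid list, relative to each gene's mean, ran from -0.03 to 0.23 in controls and from -0.48 to 0.06 in M+V, with M+V replicate 3 lowest. Without that array, 11 of 18 genes were below 0 and the median was -0.10. On the arrays of the high bioB level the list was far lower in 1 library: M+V replicate 1 stood at -4.09, with Alas2 at 4.02 and Epb42 at 3.48, whereas M+V replicate 2 and control replicate 1 had Alas2 at 11.89 and 11.92. The part of marrow or blood content in these differences was not tested.

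The promoters of the erythroid list were examined for a GATA motif, since GATA factors bind such letters in red cell genes. The letters AGATAA, on either strand within 250 bases upstream of the start, were present in 5 of the 14 erythroid genes with a promoter entry (Alas2, Epb42, Epor, Kel and Rhd) and in 11.4% of all 27025 genes. The stretches below show the match in capitals (TTATCT is the reverse complement of AGATAA) for the 2 genes that were lower by their brightest probe, while the promoter of Mkrn1 held no match; they are RefSeq sequences of the GRCm38.p6 assembly, which is of C57BL/6J and not DBA/2J, and are read along the gene's strand.
Alas2, chrX:150547296-150547375, plus strand: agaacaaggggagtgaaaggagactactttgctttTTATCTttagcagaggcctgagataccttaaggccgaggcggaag
Epb42, chr2:121037059-121037127, minus strand: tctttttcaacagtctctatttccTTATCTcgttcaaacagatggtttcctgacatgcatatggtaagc

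Genes of antigen presentation through MHC class II lay to the lower side in M+V as a list, though not in every array. Of 11 such genes, 9 were below 0 and 5 lay below control at an unadjusted p under 0.05, 1 passed the fold cutoff too, and the median was -0.38. H2-Ab1, another classical chain, was lower in a dimmer probe (-0.63) and differed by -0.38 in its brightest. H2-Oa and H2-Ob, which together form a modulator of peptide loading, and H2-Aa and H2-Eb1, chains of the classical class II molecules, were named by their test statistics. Many class II promoters carry a Y box, and its core, GATTGG, was found on either strand within 250 bases upstream in 6 of the 8 list members with a promoter entry (H2-Aa, H2-DMa, H2-DMb2, H2-Eb1, H2-Oa and H2-Ob), against 16.6% of all 27025 genes. The stretches of the 4 named genes are shown with the core in capitals (CCAATC is its reverse complement); a match is a description of the letters only.
H2-Aa, chr17:34287828-34287907, minus strand: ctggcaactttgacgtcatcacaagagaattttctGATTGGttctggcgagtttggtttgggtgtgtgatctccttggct
H2-Eb1, chr17:34305797-34305866, plus strand: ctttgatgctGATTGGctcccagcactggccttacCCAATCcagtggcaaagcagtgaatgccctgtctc
H2-Oa, chr17:34092300-34092378, plus strand: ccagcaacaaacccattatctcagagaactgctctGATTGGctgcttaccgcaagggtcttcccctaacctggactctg
H2-Ob, chr17:34238812-34238891, plus strand: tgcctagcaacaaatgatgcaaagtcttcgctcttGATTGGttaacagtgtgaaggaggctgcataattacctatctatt

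H2-Oa had log2 signals of 7.78, 7.53, 7.66 and 7.56 in controls and of 6.46, 7.42, 7.36 and 7.06 in M+V. The groups did not overlap, and the difference of -0.56 (SE 0.19) fell just within the fold cutoff, but the probe passed the filter only through the controls. H2-Ob was at 9.85, 10.14, 10.22 and 9.34 in controls and at 8.27, 9.48, 9.59 and 9.41 in M+V. It was lower by the cutoffs (-0.70, SE 0.30; limma unadjusted p = 0.0404, adjusted p = 0.638), though control replicate 5 lay below 3 of the M+V arrays. H2-Aa was at 12.39, 12.47, 12.84 and 12.46 in controls and at 11.77, 12.40, 12.30 and 12.16 in M+V, and H2-Eb1 at 10.70, 10.89, 11.15 and 10.58 and at 10.10, 10.63, 10.51 and 10.31. Both had 1 M+V array, replicate 4, within the range of the controls. All 4 genes were also below control replicate 1 in both M+V arrays of the high bioB level, by -0.70 to -0.93 on average. The mean level of the list ran from -0.004 to 0.30 in controls and was -0.56, 0.12, 0.05 and -0.16 in M+V replicates 3 to 6. Thus M+V replicates 4 and 5 lay within the control range. Without M+V replicate 3, 7 of 11 list members were below 0, 2 lay below control at an unadjusted p under 0.05, and the median was -0.25. The difference of the mean level then shrank from -0.27 to -0.13.

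B cell genes behaved likewise, and class II genes are expressed by B cells and macrophages. Of 21 B lineage genes, 18 were below 0, with a median of -0.36. Fcmr, the receptor for IgM, was at 9.40, 9.40, 9.57 and 9.33 in controls and at 8.66, 9.08, 8.90 and 9.10 in M+V. Its groups did not overlap, and its difference of -0.49 (SE 0.12) was within the fold cutoff. Rhoh, a GTPase of blood cells, was lower by the cutoffs (-0.66, SE 0.21), with M+V replicate 5, at 7.72, above the lowest control at 7.55; this probe, too, passed the filter only through the controls. The mean level of the list was -0.06 to 0.43 in controls, -0.84 in M+V replicate 3 and between 0.00 and 0.16 in the other 3 M+V arrays. Without M+V replicate 3 the same 18 genes were below 0, but the median was -0.16 and the difference of the mean level shrank from -0.31 to -0.08.

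Among 15 macrophage genes, 13 were below 0, the median was -0.22 and 1 was lower. That gene was Cd163, the scavenger receptor for haptoglobin-hemoglobin complexes, at 9.14, 8.92, 9.25 and 8.75 in controls and at 8.11, 8.41, 8.47 and 8.51 in M+V. Every M+V array was below every control array, and the difference was -0.64 (SE 0.14; limma unadjusted p = 0.000856, adjusted p = 0.354). On the arrays of the high bioB level the direction of Cd163 was split, at 8.88 in the control and 9.62 and 8.62 in M+V. Without M+V replicate 3, 9 of the 15 macrophage genes were below 0. By their brightest probes, neutrophil granule genes (8 of 17 above 0, median -0.01), IgA plasma cell genes (4 of 9 above 0, median -0.02) and interferon response genes (15 of 25 above 0, median 0.03) did not lie to the lower side in this way. By any tested probe 2 of the 25 interferon genes were lower (8%, against 0.984% of all genes). These were Xaf1 (-0.93, groups not overlapping) and Jak1 (-0.67), each in a dimmer probe. Their brightest probes both differed by -0.13.

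The position of cell cycle genes rested on 1 array. Of 37 such genes 33 were below 0, with a median of -0.20, and by their brightest probes none passed an unadjusted p of 0.05 in limma in either direction. In other probes 5 genes (Aspm, Cenpe, Rfc1, Smc2 and Smc4) were lower and 1, Pold3, higher. These were 13.5% and 2.70% of the list, against 0.984% and 0.218% of all genes by any tested probe. The called probe of Aspm passed the filter only through the controls, as did the called probe of Smc2 with the larger difference (-0.997). Their lower values are a description only, and the share over all genes holds such probes too. Genes of the list had 1.97 tested probes on average, against 1.64 over all genes. The mean level of the list was -0.72 in M+V replicate 3, between -0.05 and 0.31 in the other M+V arrays, and between -0.21 and 0.30 in controls. Without M+V replicate 3, 12 of the 37 genes were below 0 and the median was 0.03.

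**Figure D2:**
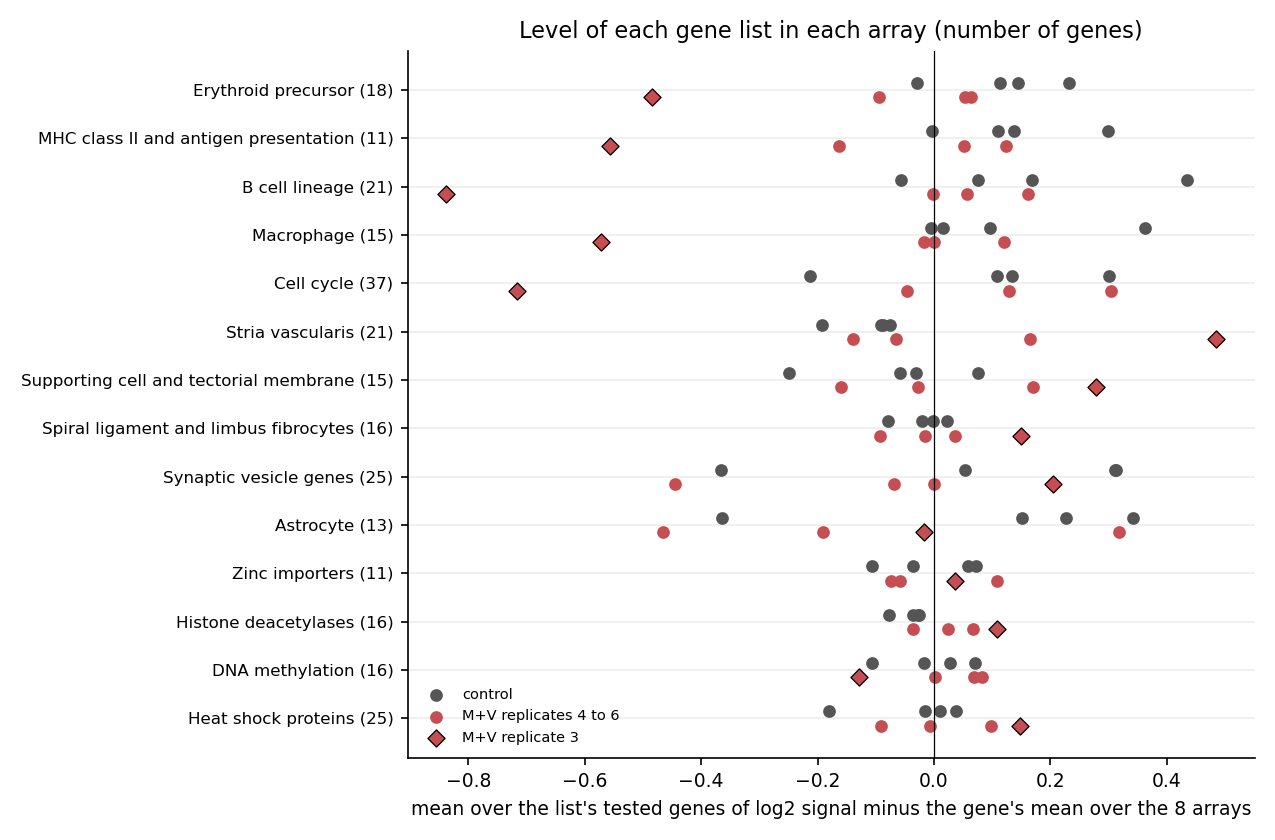
Mean level of 14 gene lists (rows, number of genes in brackets) in each of the 8 arrays, as log2 signal minus each gene's mean (x axis); grey, control; red, M+V, with replicate 3 as a diamond. M+V replicate 3 is lowest in the erythroid (-0.48) and B cell (-0.84) lists and highest in the stria vascularis list (0.49).

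Genes of the stria vascularis lay to the higher side in M+V. Of 21 such genes 20 were above 0, 3 were above control at an unadjusted p under 0.05, 1 of them past the fold cutoff, and the median was 0.19. Of these 3, Slc22a8 and Trpm6 passed the filter only through the M+V arrays, so that their being higher was built in. Slc22a8, an organic anion transporter, had log2 signals of 6.70, 6.96, 6.12 and 6.63 in controls and of 7.48, 7.20, 7.23 and 7.52 in M+V. All M+V arrays were above all controls, by 0.75 on average (SE 0.17). At the high bioB level the order was the opposite, with 7.64 in the control and 5.88 and 5.72 in the M+V arrays. Trpm6, a magnesium channel, was at 6.87, 6.82, 6.52 and 6.77 in controls and at 7.52, 6.99, 7.20 and 7.57 in M+V. Its groups did not overlap and its difference of 0.58 (SE 0.15) was just within the fold cutoff. Dct, a melanin-forming enzyme of strial intermediate cells, differed by 0.38 (SE 0.16), with M+V replicate 5 at 12.84 among the controls. The mean level of the list was between -0.19 and -0.08 in controls and at 0.49, -0.14, -0.06 and 0.17 in M+V replicates 3 to 6. Thus 3 of the 4 M+V arrays were above every control; without M+V replicate 3, 16 of 21 genes were above 0 and the median fell to 0.05.

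Lists of other cochlear cell types lay nearer to 0. Supporting cell and tectorial membrane genes were above 0 in 13 of 15 cases (median 0.12; 10 of 15 without M+V replicate 3), with no brightest probe at an unadjusted p under 0.05 by limma in either direction. Hair cell genes were above 0 in 6 of 8 and spiral ganglion genes in 8 of 13, again with none at that threshold. Of 16 fibrocyte genes 1 was higher and 1 lower. Otor was the higher one, at 12.31, 13.09, 12.94 and 12.68 in controls and at 13.77, 12.79, 13.57 and 13.33 in M+V (0.61, SE 0.23), with M+V replicate 4 inside the control range. Dpt, a matrix protein of fibroblasts, was lower, at 8.71, 8.19, 8.39 and 7.42 in controls and at 7.12, 7.90, 6.997 and 7.41 in M+V (-0.82, SE 0.28), with control replicate 5 inside the M+V range.

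Cartilage and bone matrix genes went in both directions, 16 of 29 being above 0. Acan, the core protein of the cartilage proteoglycan aggrecan, was higher, at 8.33, 9.24, 8.95 and 8.86 in controls and at 9.90, 9.24, 9.64 and 9.37 in M+V. The groups met at 9.24 without overlapping, and the difference was 0.69 (SE 0.20; limma unadjusted p = 0.0069, adjusted p = 0.455). At the high bioB level Acan was at 9.16 in the control and at 7.57 and 7.55 in M+V, opposite in direction, and ignoring the bioB level over all 11 arrays turned the difference to -0.03. Col2a1 and Col11a2, cartilage collagens, lay above control by 0.49 (SE 0.19) and 0.31 (SE 0.11), and both were below it at the high level. Comp, a matrix protein of cartilage and tendon, lay below control, at 8.91, 8.64, 8.75 and 8.62 against 8.13, 8.14, 8.24 and 8.36. Its groups did not overlap, and its difference of -0.51 (SE 0.10) did not reach the fold cutoff.

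**Figure D3:**
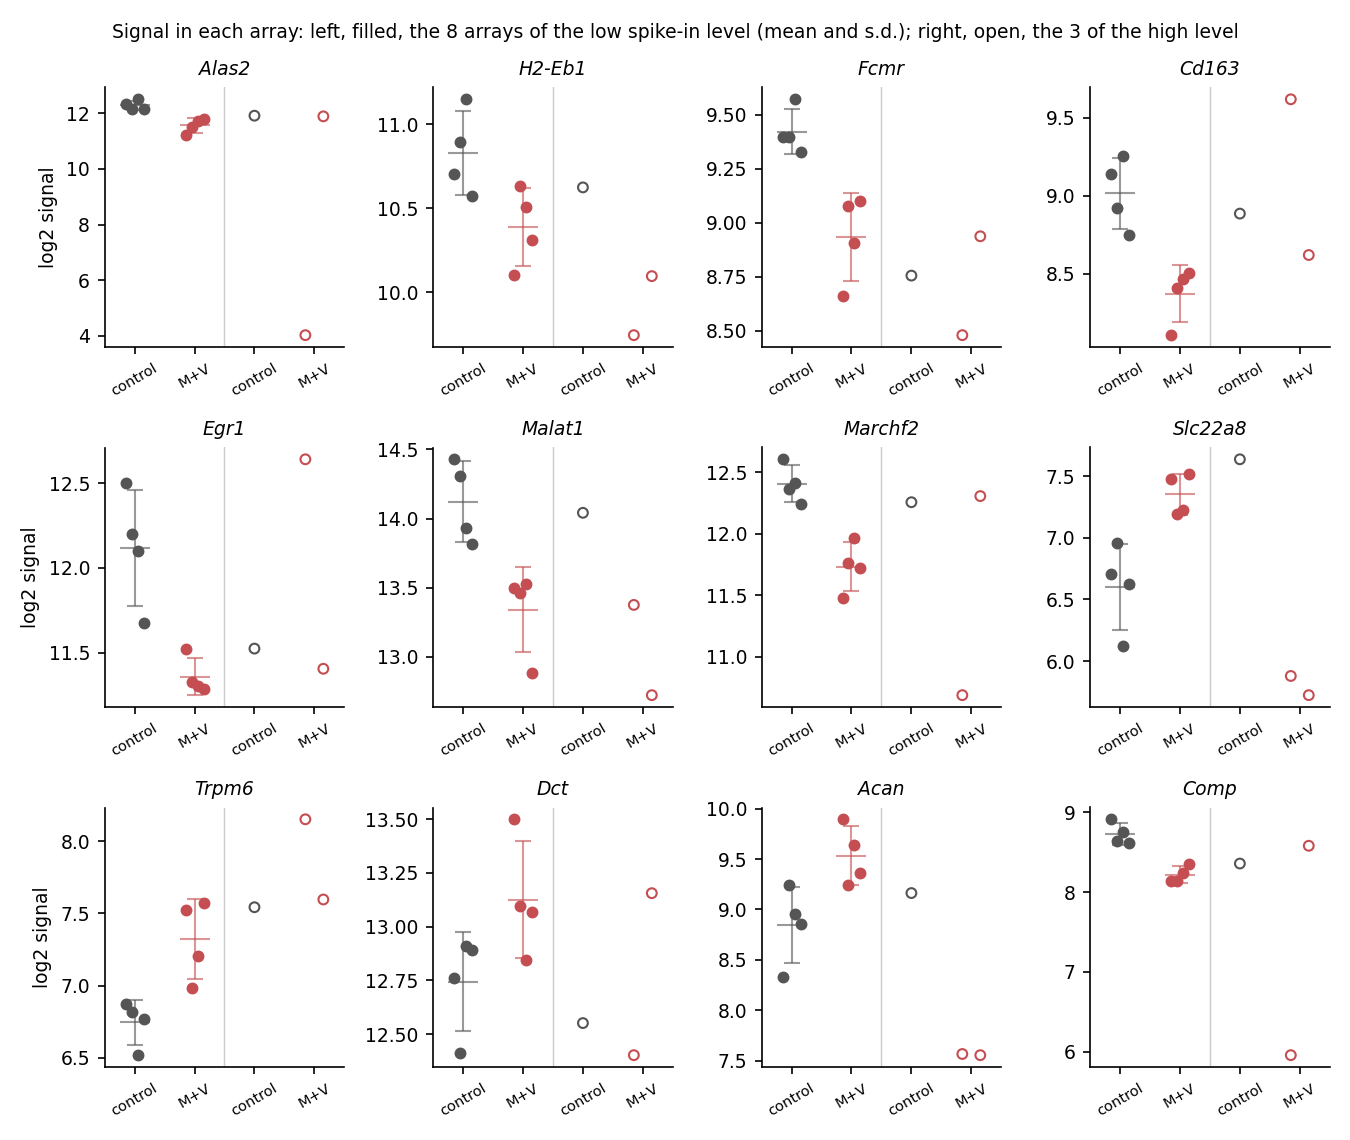
Log2 signal of named genes in every array: filled points, the 8 arrays of the low bioB level with mean and s.d.; open points, the 3 arrays of the high level. In Alas2 and Cd163 all 4 M+V arrays lie below the 4 control arrays of the low level, and in Slc22a8 all lie above them while the 2 open M+V points lie below the open control point.

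Egr1, an immediate early transcription factor, was lower in M+V. Its log2 signals were 12.50, 12.20, 12.10 and 11.68 in controls and 11.52, 11.32, 11.30 and 11.28 in M+V, a difference of -0.76 (SE 0.16; limma unadjusted p = 0.000802, adjusted p = 0.352). The M+V arrays lay close together and below all controls, while at the high bioB level they were at 12.64 and 11.40 and the control at 11.52. Of all 36 immediate early and stress genes 20 were below 0 and 16 above, with a median of -0.02. Egr3, of the same family, and Myc differed by -0.30 (SE 0.15) and -0.44 (SE 0.20) and did not pass. Plk3, a stress-responsive kinase, lay above control in every M+V array by 0.55 (SE 0.16), but its probe passed the filter only through M+V.

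Malat1, a long noncoding RNA of nuclear speckles, was lower in M+V by its brightest probe, at 14.43, 14.31, 13.93 and 13.82 in controls and at 13.50, 13.46, 13.53 and 12.88 in M+V. The groups did not overlap, and the difference was -0.78 (SE 0.18; limma unadjusted p = 0.00173, adjusted p = 0.362). Its 7 tested probes did not move together. A further 2 were also lower, by -0.72 and -1.02, and another lay below control by -0.56, whereas the remaining 3 differed by 0.13, -0.11 and -0.10.

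Many of the lower genes were called from a probe other than their brightest. Of the 113, 18 had 1 tested probe and 95 had several; all probes of the gene had the same sign in 49 of the 95, the brightest had the sign of the called probe in 68, and it was itself lower in 10. In the other 85 genes the called probe had a median log2 signal of 8.11 and a median difference of -0.71, and the brightest probe a median signal of 10.6 and a median difference of -0.07; since these genes were picked for a called probe and a brightest probe that was not called, part of this gap is set by the choice. Of those brightest probes, 58 of 85 were below 0 and 5 had an unadjusted p under 0.05 in limma. In the same way, in 17 of the 25 higher genes a dimmer probe was called, with a median difference of 0.65 against 0.00 in the brightest. Calls were concentrated among dim probes: with the tested probes split into 4 equal classes by mean signal, the dimmest class held 22 of the 31 higher and 68 of the 139 lower ones, and the brightest class 2 and 18. The filter bears on this concentration, since 19 of the 31 and 57 of the 139 passed it through 1 group only.

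The called probes of the 85 genes were mostly below control also in arrays that had no part in the choice, but unevenly so. At the high bioB level their median difference was -0.47, 74 of 85 being below 0, and that of the brightest probes -0.13, with 59 below 0. Over all called probes, 115 of 139 lower ones were below 0 at the high level, where 48.8% of all tested probes were, and 17 of 31 higher ones were above 0, where 51.2% were. The single control array of that level enters every one of these differences. Why the probes of a gene differ was not tested.

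**Figure D4:**
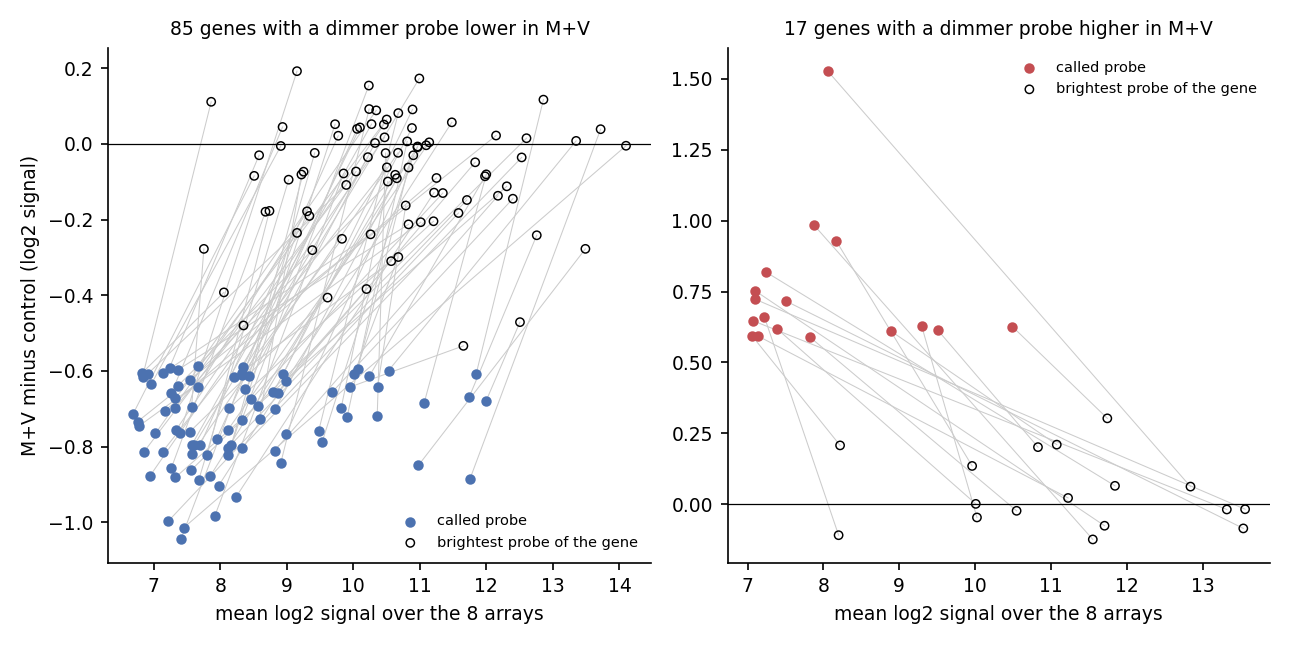
Difference between M+V and control (y axis, log2 signal) against mean log2 signal over the 8 arrays (x axis) for the called probe (filled) and the brightest probe (open) of the same gene, joined by a line, in genes whose brightest probe was not the called one. The medians are -0.71 and -0.07 in 85 lower genes and 0.65 and 0.00 in 17 higher genes.

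The smallest p values among lower genes belonged to such probes. 4632427E13Rik, an uncharacterized transcript, was at 8.63, 8.70, 8.63 and 8.30 in controls and at 7.96, 7.71, 7.78 and 7.62 in M+V (-0.80, SE 0.12; limma unadjusted p = 5.34e-05, adjusted p = 0.333), while its brightest probe differed by -0.02. Ctcf, the insulator-binding factor that anchors chromatin loops, was at 10.60, 10.50, 10.66 and 10.45 in controls and at 9.91, 10.16, 10.002 and 9.68 in M+V, and differed by -0.61 in that probe and by -0.09 in its brightest. Atrx, a chromatin remodeller of heterochromatin, differed by -0.81 and -0.14, and Ankrd11, a chromatin regulator that binds deacetylases, by -0.66 and 0.04. Groups did not overlap in any of the 3 called probes. By any tested probe 7 of the 42 genes of the chromatin list were lower (Ankrd11, Ankrd12, Atrx, Bptf, Kmt2c, Phf20l1 and Smarcc1), a count made after their values were seen. This was 16.7% of the list, against 0.984% of all genes. The called probes of Bptf and Smarcc1 passed the filter only through the controls, so their lower values are a description only. The share over all genes holds such probes too. Genes of this list had 2.43 tested probes on average, against 1.64 over all genes. By brightest probes none of the 42 was lower, 24 were above 0 and the median was 0.02. Within it Rsf1, a remodelling subunit, lay below control by -0.54 (SE 0.12), at 8.78, 8.64, 8.80 and 8.64 against 8.48, 7.95, 8.16 and 8.10. Marchf2, a membrane-bound ubiquitin ligase, was lower in its brightest probe (-0.67, SE 0.12) and differed by -0.34 in the next.

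Ulk3 had the smallest p of the higher genes. This kinase of the autophagy-related ULK family was at 6.45, 6.69, 6.29 and 6.46 in controls and at 7.09, 6.97, 7.20 and 7.04 in M+V (0.60, SE 0.11). Erbin, a scaffold protein that binds the receptor ERBB2, was at 6.75, 7.05, 6.64 and 6.45 and at 7.54, 7.58, 7.56 and 7.22, while its brightest probe differed by -0.08. Groups did not overlap in either called probe, but these probes of Ulk3 and Erbin, and that of Adamtsl2, passed the filter only through the M+V arrays. Pde5a, the cGMP phosphodiesterase, was higher by 0.63 in 1 probe while 2 others differed by -0.05 and -0.25. Adamtsl2, a secreted glycoprotein that binds microfibrils, differed by 0.94 (SE 0.24), its controls spreading from 5.82 to 6.97 and its M+V arrays from 7.05 to 7.47.

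Lists of DNA methylation, histone deacetylase, and methionine and folate cycle genes had medians close to that of all genes. DNA methylation genes were above 0 in 10 of 16 cases (median 0.02), the methyltransferases Dnmt1, Dnmt3a and Dnmt3b differing by -0.09, 0.12 and 0.07, and Gadd45g, linked to DNA demethylation, being the 1 gene at an unadjusted p under 0.05 (0.34, SE 0.12). Histone deacetylases, a list that also holds sirtuins, were above 0 in 12 of 16 cases (median 0.07). Hdac1, Hdac2 and Hdac3 were at -0.03, 0.01 and 0.11, and Sirt4, a mitochondrial sirtuin, lay above control by 0.25 (SE 0.11). The mean level of this list ran from -0.08 to -0.03 in controls and from -0.04 to 0.11 in M+V, with 3 M+V arrays above every control. Methionine and folate cycle genes were above 0 in 7 of 17 cases, with a median of -0.01. None of these genes passed the fold cutoff by its brightest probe. By any probe, Mthfd1, an enzyme of the folate cycle, was lower in 1 of its 3 probes (-0.76, SE 0.19), whose groups did not overlap, and differed by 0.00 in its brightest.

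Zinc transport was examined because the study followed up the importer Slc39a4 (Zip4). Of 11 tested importers 7 were above 0, with a median of 0.09, and of 11 exporters and metallothioneins 5 were, with a median of -0.02. Slc30a10, an exporter of manganese in the zinc exporter family, lay below control in every M+V array, at 7.08, 7.12, 7.02 and 7.47 against 6.41, 6.85, 6.81 and 6.72 (-0.47, SE 0.13), but its probe passed the filter only through the controls. Mt2, a metal-binding metallothionein, lay below it by -0.28 (SE 0.11), with M+V replicate 6 within the control range. Slc39a4 itself was dim: only 2 of the 8 arrays reached their own median signal.

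Slc39a4 was above control in every M+V array. Its log2 signals were 5.43, 5.75, 6.31 and 6.24 in controls and 7.48, 6.48, 6.59 and 7.54 in M+V, a difference of 1.09. The exact two-sided permutation test over the 8 arrays gave p = 0.0286, the smallest that 70 splits allow, and 0.143 after Benjamini-Hochberg adjustment over the 15 probes of the 6 selected genes. Since the study selected these genes on arrays that include these 8, the test is not independent of that choice. At the high bioB level the control was at 6.68 and the M+V arrays at 6.78 and 8.03.

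Among the other selected genes, Otx1, a homeobox factor of inner ear patterning, was dim in all 8 arrays, at 5.56, 5.21, 4.25 and 6.11 in controls and at 6.70, 5.54, 6.56 and 6.85 in M+V. It differed by 1.13 with 1 M+V array inside the control range (exact permutation p = 0.0857). Gabrb2, a GABA-A receptor subunit, was dim in all 5 probes, and the brightest was at 7.31, 7.08, 5.84 and 7.26 in controls and at 5.12, 6.08, 5.41 and 7.13 in M+V (-0.93, exact permutation p = 0.2). Its groups overlapped.

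Pold3, a subunit of DNA polymerase delta, differed by 0.14 and -0.11 in its brighter probes and by 0.93 in its dimmest. The latter was at 7.84, 7.18, 8.14 and 7.65 in controls and at 8.89, 8.49, 8.29 and 8.86 in M+V, without overlap (exact permutation p = 0.0286, adjusted 0.143). Serpinh1, the collagen chaperone HSP47, differed by 0.21 in its brighter probe (exact permutation p = 0.171) and by 0.61 in the dimmer one, which was at 8.40, 8.75, 8.63 and 8.55 in controls and at 9.51, 8.95, 9.15 and 9.17 in M+V. Hspa1b, an inducible HSP70 with a near-identical copy in Hspa1a that its probes may also bind, differed by 0.20, 0.44 and 0.61 from its brightest to its dimmest probe, with exact permutation p of 0.371, 0.171 and 0.0857.

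**Figure D5:**
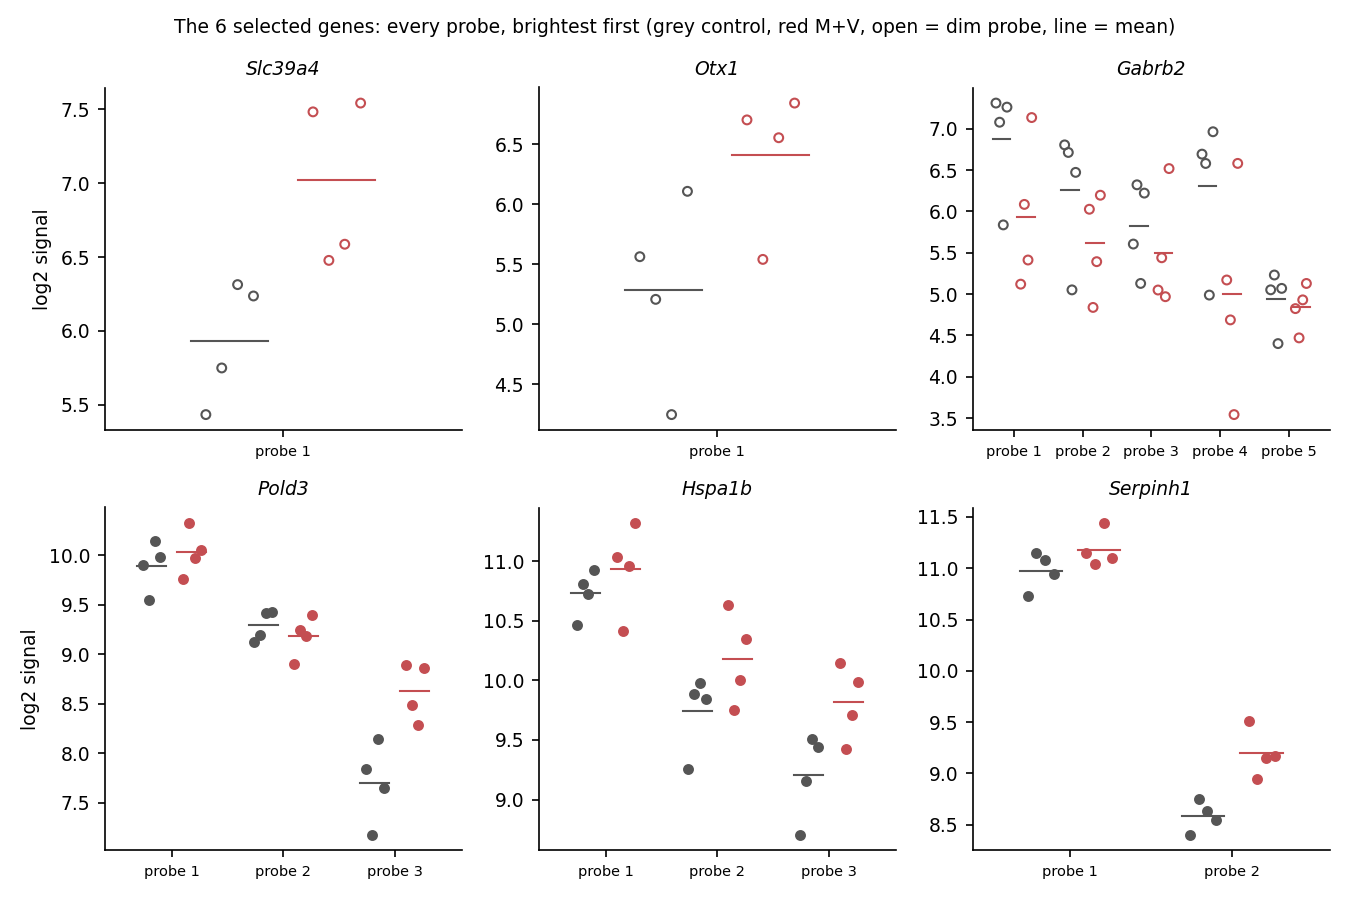
Log2 signal (y axis) of every probe of the 6 genes selected by the study, brightest first, in the 4 control (grey) and 4 M+V (red) arrays; lines are means and open points mark dim probes. Groups do not overlap in Slc39a4 and in the dimmest probes of Pold3 and Serpinh1; they overlap in Otx1 and Gabrb2.

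Collagen-processing and heat shock genes as lists lay slightly to the higher side, with 12 of 14 and 19 of 25 genes above 0 and medians of 0.10 and 0.06. Without M+V replicate 3 these counts were 11 and 15.

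Neural lists differed in where they lay, with wide scatter. Neuronal ion channel genes were above 0 in 9 of 20 cases by their brightest probes (median -0.03). By any tested probe 2 of the 20 were lower (10%, against 0.984% of all genes). These were Cacnb4 (-1.04) and Scn1a (-0.76), each in a dimmer probe, while their brightest differed by -0.24 and -0.41. The called probe of Cacnb4 passed the filter only through the controls, so its lower values are a description only. At the high bioB level the called probes differed by -1.83 and -1.89. Synaptic vesicle genes were below 0 in 21 of 25 cases (median -0.14) and neurofilament and axon genes in 19 of 25 (median -0.09); without M+V replicate 3 the counts were 22 and 23. Syn2, a synapsin of synaptic vesicles, was lower, at 8.45, 8.47, 7.49 and 8.66 in controls and at 7.89, 7.69, 7.41 and 7.42 in M+V (-0.66, SE 0.24). Control replicate 4 lay among the M+V arrays. Astrocyte genes were taken as markers of brain tissue attached to the nerve, although their list shares Gjb6 and Slc1a3 with that of supporting cells. They were below 0 in 10 of 13 cases, and their mean level ran from -0.36 to 0.34 in controls and from -0.46 to 0.32 in M+V. Oligodendrocyte genes were taken as markers of the same tissue, although their list shares Cldn11 with that of the stria vascularis. They were above 0 in 7 of 12 cases (median 0.04), with mean levels from -0.21 to 0.28 and from -0.62 to 0.30. Control replicate 4 was the lowest control in astrocyte, synaptic vesicle and neurofilament genes alike, whereas the lowest M+V array was replicate 5 in astrocyte genes and replicate 6 in both neural lists. The part of attached brain tissue in these differences was not tested.

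At the high bioB level, where only 1 control and 2 M+V arrays were available, the interaction of treatment and bioB level passed an adjusted p of 0.05 in limma for 2 probes (0.00931%), of Slc35e4 and Omg. Slc35e4, a putative nucleotide sugar transporter, did not differ at the low level (-0.05), and at the high level it was at 5.08 in the control and at 8.54 and 8.10 in M+V. Omg, the oligodendrocyte myelin glycoprotein, differed by 0.08 at the low level, and at the high level it was at 10.3 in the control and at 7.19 and 7.63 in M+V. In both genes the single control array of the high level lay outside the range of all other 12-week arrays.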

How the data were processed

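Whole left cochleae of DBA/2J mice were hybridized singly to Affymetrix Mouse Genome arrays. The authors extracted signals with GCOS and MAS5, whose versions are not given in the sources used here, and quantile-normalized them; the deposited log2 signals were used. Probe symbols came from GEO's platform annotation, matched to RefSeq GRCm38.p6 for 34754 of 34958 single-symbol probes. Signals under 1 were set to 1 (0.869% of values). Probes at or above the array median (50th percentile) in every array of a group were tested with limma 3.58.1 in R 4.3.3, 4 arrays against 4, two-sided, with Benjamini-Hochberg adjustment; the code was tested on simulated data. Labels number the mice but do not state litters. Named genes were the 6 selected by the study, the 15 genes of smallest p in each direction, and up to 4 per gene list by moderated t; Dnmt1, Dnmt3b, Hdac1, Hdac2 and list members named only for a call in a dimmer probe were chosen after their values were seen. The members and lists were chosen with earlier results of these data known. Alternatives covered normalization, offset, filter, test, arrays, weights, covariates, replicate block and leaving out each array.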

Additional observations from a re-analysis of the deposited data

Results flagged for a closer look

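Within groups of 4 arrays, 1 array lay far from the other 3 in 15 of the 194 groups examined (7.73%), by a gap over the group's range above Dixon's 95% critical value; chance gives about 1 in 20. Among control arrays these were replicate 2 in Zmiz1 (0.844) and Col2a1 (0.886), replicate 4 in Gabrb2 (0.843) and Slc39a9 (0.875), and replicate 5 in Cat (0.888), Epb42 (0.915) and C1qb (0.83). The stria vascularis list stood apart in control replicate 3 (0.862). Among M+V arrays they were replicate 6 in Erbin (0.891), Slc39a7 (0.968), Plk3 (0.836) and Malat1 (0.893), replicate 4 in Col2a1 (0.919), and replicate 3 in H2-Ob (0.858) and the B cell list (0.836).

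The difference between M+V and control itself differed between the bioB levels in Slc35e4 (-3.29 on the log2 scale, low minus high level) and Omg (2.97). In both, the high level holds 1 control array.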

How the results depend on the processing

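No probe passed an adjusted p of 0.05 in any alternative with a filter; without a filter 1 did, a probe of several symbols at or near 0 in all controls. Counts of higher probes were 17 with log2(signal + 32), 681 without filter, 253 and 5 with the filter at the 25th and 75th percentile, 20 with the methods' t-test on linear signals and 139 with the erythroid score as covariate. Lower counts were 805, 428 and 39 under the 3 filters, 90 with the t-test on log2 signals, and 249 both over 11 arrays with the bioB level ignored and with the erythroid covariate. Non-overlapping higher probes were 934 (no filter), 249 (75th percentile) and 112 (11 arrays), and lower ones 901, 736 (25th percentile), 250 and 124. Interaction calls were 39, 116 and 0 under the 3 filters, 1 with array weights, 13 with all 16 arrays, and 1, 0 and 21 with the Gapdh, brain and erythroid covariates. The causes were not tested.

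Leaving out 1 array gave 35 to 78 higher probes (78 without M+V replicate 4), 111 to 234 lower, 711 to 1203 and 666 to 925 non-overlapping, 0 to 0 at adjusted p, and 1 to 500 interaction calls (500 without M+V replicate 2). Differences ranged from 0.78 to 1.42 in Otx1, 0.92 to 1.27 in Slc39a4, 0.02 to 0.23 in Pold3, 0.07 to 0.37 in Hspa1b, 0.12 to 0.27 in Serpinh1 and -1.33 to -0.66 in Gabrb2.

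Otx1 lost its unadjusted p under 0.05 with the t-test on log2 signals (1.13), the Gapdh covariate (1.14) and the erythroid covariate (0.80), and also without control replicate 2, 3 or 4 or M+V replicate 3, 5 or 6 (limma unadjusted p from 0.0504 to 0.0904), and Slc39a4 with the t-test on linear signals (1.13) and the erythroid covariate (0.82). Gabrb2 gained it over 11 arrays, with the bioB level ignored (-1.80) or as a block (-1.81). Other probes gained it in Pold3 (0.93), Hspa1b (0.61) and Serpinh1 (0.61). Other probes reversed Pold3 (-0.11), Pde5a (-0.046, -0.25), Erbin (-0.076), Tnfrsf19 (-0.023), Eif4h (-0.0090, -0.085), Ddx5 (-0.017, -0.13), 4632427E13Rik (0.19), Dzip3 (0.052), Rfc1 (0.021), Ankrd11 (0.042), Phf20l1 (0.039), Slc12a2 (-0.37, -0.15), Ebf1 (0.060, 0.052) and Malat1 (0.13). Over 11 arrays Acan (-0.032) and Col2a1 (-0.25, and -0.12 with the block) reversed. List medians moved by less than their spread in 961 cases over all alternatives and by more in 28.

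With the replicate number as a block, 58 probes were higher and 108 lower, and 90 of these were also called without it. Slc39a4 was at 0.75 and no longer past the threshold, and Hspa1b at -0.015. Only the numbers 3 to 5 occur in both groups, so control replicate 2 and M+V replicate 6 added nothing to these differences. Residuals of same-numbered arrays correlated at 0.26, 0.22 and -0.23, so the numbers were not taken to pair samples.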

Other observations

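Fast skeletal muscle genes, 6 tested, had a median difference of -0.45 with wide scatter within groups. Myh1, a fast myosin heavy chain, was at 7.19, 7.05, 11.60 and 11.71 in controls and at 5.90, 9.36, 4.95 and 8.89 in M+V. Control replicates 4 and 5 were the highest of the 8 arrays, and the groups overlapped. Respiratory chain genes lay above 0 in 34 of 47 cases (median 0.05), and 27 did without M+V replicate 3. Rpl37, a ribosomal protein gene, was above control in every M+V array (0.57, SE 0.10) and just within the fold cutoff.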
